A study of Sus scrofa with 6 samples.

Results

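The genes of the circadian clock were examined in the myocardium of Tibetan minipigs with chronic pressure overload. The sample titles name the tissue as heart and give no chamber. The members were the rows of the deposited expression table that carried the symbol of 1 of 10 listed clock genes: ARNTL (also written BMAL1), CLOCK, PER1, PER2, PER3, CRY1, CRY2, NR1D1, NR1D2 and DBP. Of these 10 symbols, 9 were found among the 13288 genes of the table, and all 9 passed the filter on low values and were tested. PER3 was absent as a symbol and is taken up below only through an unnamed gene at its annotated position. A row was taken by its symbol alone.

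The molecular clock is a transcriptional feedback loop that runs in nearly every cell of the body, including cardiomyocytes. ARNTL and CLOCK form a heterodimer that binds E-box motifs and switches on the PER, CRY, NR1D and DBP genes. The PER and CRY proteins accumulate and repress that heterodimer, while the nuclear receptors NR1D1 and NR1D2 (REV-ERB alpha and beta) repress ARNTL. ARNTL and the PER, NR1D and DBP genes are thus high at about opposite times of the day. In rodent hearts this loop is known to time the expression of metabolic enzymes and ion channels.

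RNA was sequenced from 3 sham minipigs, which underwent thoracotomy without constriction, and 3 minipigs with descending aortic constriction (DAC), in which sutures narrowed the descending aorta. All the animals were male, were kept under an alternating light and dark cycle  and were euthanized weeks after surgery at the same study end point. The hour at which each heart was collected is not given in the sources used here, and each heart was sampled once, so a shift in the time of the clock and a change in the level of its genes cannot be told apart. Replicates 1 to 3 are the sham minipigs and replicates 4 to 6 the DAC minipigs, each of them a separate animal. The tissue was bulk myocardium, in which fewer cells of a type and less RNA per cell cannot be told apart.

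Levels are given as FPKM, mapped fragments scaled by transcript length and by library size, as deposited. The groups were compared on log2(FPKM + 1) with limma's moderated test in the 11029 genes that reached 1 FPKM in 3 or more of the minipigs, and a fold change is the DAC mean minus the sham mean on that scale, on which changes of weakly expressed genes come out too small. A gene was called at an unadjusted P under 0.05, the threshold of the study for differentially expressed genes. With this rule 939 genes, or 8.51% of those tested, were called, 3.25% as higher and 5.27% as lower in the DAC group, and the lower calls were 61.9% of all calls. Median scaling gave a share of 52.8%, quantile normalization 52.9%, and rescaling without the genes of the mitochondrial genome 44.8%. No gene reached an adjusted P under 0.05 with Benjamini-Hochberg adjustment (smallest 0.106).

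The tissue carried the markers of ventricular cardiomyocytes in every minipig, with MYL2, the ventricular regulatory myosin light chain, between 4150 and 5030 FPKM. The atrial light chain MYL4 was between 1.08 and 3.79 FPKM in the sham group and was at 9.22, 0.78 and 17.6 FPKM in DAC replicates 4, 5 and 6. SLN, also an atrial marker, was between 0.278 and 1.01 FPKM in the sham group. In DAC replicates 4, 5 and 6 SLN was at 1.44, 0.932 and 9.83 FPKM. NPPA and MYL7, the other atrial markers listed, were not found by symbol among the deposited genes. The summed level of the 9 fibroblast markers was between 535 and 619 FPKM in the sham group and between 748 and 851 FPKM in the DAC group. Of these 9 genes, 5 were called higher in the DAC group, against 3.25% of all genes tested. The 5 were COL1A1, COL1A2, COL3A1, LUM and POSTN. PDGFRA, DCN, TCF21 and DPT were not called, with fold changes of 0.24, -0.012, -0.022 and 0.080. The 7 endothelial markers summed to between 110 and 156 FPKM in the sham group and between 103 and 148 FPKM in the DAC group. Of these 7, CLDN5 and VWF were called lower and KDR and EMCN higher, against 5.27% and 3.25% of all genes tested. The share of FPKM in genes of the mitochondrial genome was 24.0% to 25.3% in the sham minipigs, 32.8% in DAC replicate 5 and 27.1% to 27.2% in the other DAC minipigs.

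FPKM is scaled by transcript length, so the clock genes could be ranked by level. PER1 was the most abundant member, with a mean of 61.1 FPKM over the 6 minipigs (44.2 to 74.6), and its range did not overlap that of any other member. CRY2 followed with 30.2 FPKM (23.5 to 38.3), then NR1D2 with 19.2 FPKM (11.2 to 23.6) and NR1D1 with 10.5 FPKM (6.45 to 14.3). The remaining members were low: CLOCK at 5.15, PER2 at 3.84, DBP at 3.67, CRY1 at 2.53 and ARNTL at 2.19 FPKM. Between neighbours in this order, the ranges overlapped except from PER1 to CRY2 and from NR1D1 to CLOCK.

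**Figure D1:**
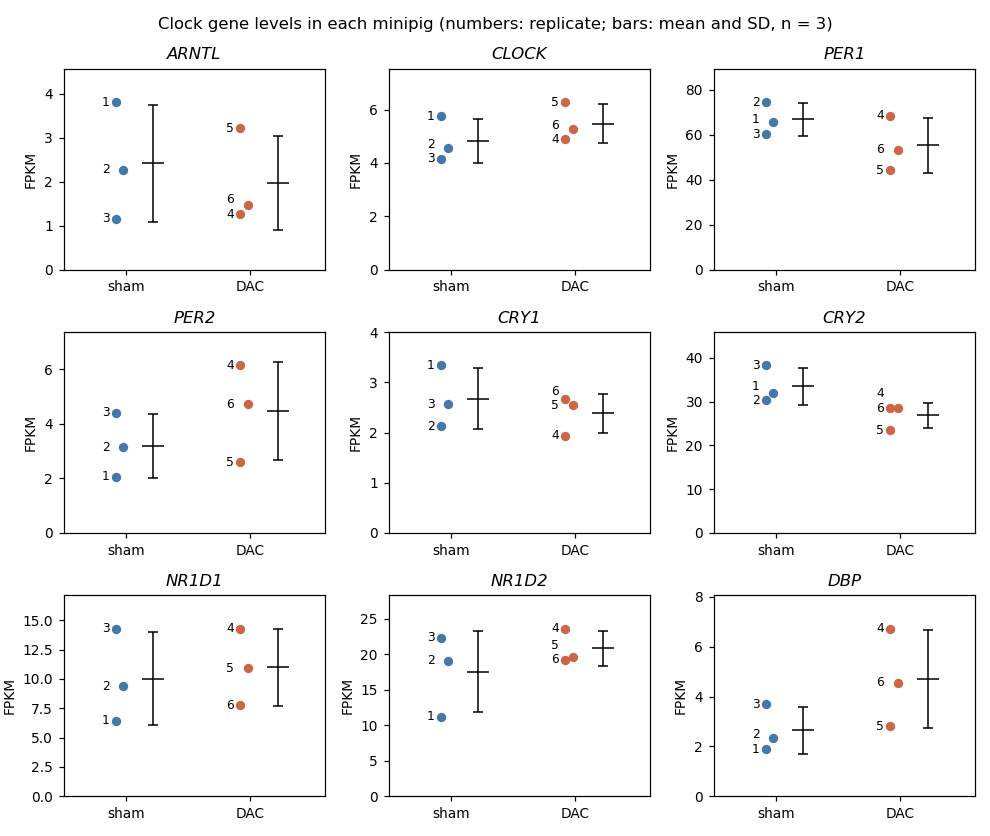
FPKM of the 9 clock genes (y axis, from 0) in the sham and DAC groups, with 1 numbered point per minipig and the group mean and SD (n = 3) beside the points. CRY2 was the member whose groups did not overlap, and in ARNTL, PER2, NR1D1 and DBP the minipigs of the same group lay far apart.

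Among the activators, ARNTL varied most from animal to animal. ARNTL (ENSSSCG00000013397, chromosome 2 from 45895289 to 46025165), the subunit of the activator whose transcript cycles, was at 3.81, 2.27 and 1.16 FPKM in sham replicates 1, 2 and 3. In DAC replicates 4, 5 and 6 ARNTL was at 1.26, 3.21 and 1.46 FPKM. Each group therefore held minipigs with high and with low ARNTL, and the groups overlapped over most of their range. The fold change was -0.18 (standard error 0.34, 95% interval -0.98 to 0.62, P = 0.614 from limma and 0.7 from the exact permutation test), and it was 0.11 without sham replicate 1.

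CLOCK (ENSSSCG00000008909, chromosome 8 from 54788864 to 54910146), the partner of ARNTL and a histone acetyltransferase, was steadier. It was at 5.75, 4.57 and 4.16 FPKM in sham replicates 1 to 3 and at 4.88, 6.28 and 5.27 FPKM in DAC replicates 4 to 6. The highest CLOCK values came from the same minipigs that had the highest ARNTL, sham replicate 1 and DAC replicate 5. Its fold change was 0.16 (standard error 0.14, 95% interval -0.18 to 0.49, P = 0.313 from limma and 0.4 from the exact permutation test), and with 1 minipig left out it was between 0.068 and 0.27.

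The PER genes encode the periodic subunits of the repressor complex, and PER1 and PER2 did not follow each other. PER1 (ENSSSCG00000017983, chromosome 12 from 53361868 to 53376611) was at 65.8, 74.6 and 60.3 FPKM in sham replicates 1 to 3 and at 68.5, 44.2 and 53.4 FPKM in DAC replicates 4 to 6. The overlap of the groups in PER1 rested on DAC replicate 4. PER1 had a fold change of -0.29 (standard error 0.17, P = 0.142 from limma and 0.3 from the exact permutation test), and without DAC replicate 4 it was -0.45 and was called, while without DAC replicate 5 it was -0.14.

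PER2 (ENSSSCG00000016338, chromosome 15 from 137793419 to 137837236) was at 2.06, 3.14 and 4.40 FPKM in sham replicates 1 to 3. In the DAC group it was at 6.14, 2.58 and 4.71 FPKM in replicates 4 to 6. The lowest value came from sham replicate 1 and the next lowest from DAC replicate 5, the minipigs with the most ARNTL. The fold change of PER2 was 0.37 (standard error 0.30, 95% interval -0.33 to 1.07, P = 0.258 from limma and 0.4 from the exact permutation test), and without DAC replicate 5 it was 0.64 and was called. It was 0.15 without DAC replicate 4 and 0.16 without sham replicate 1.

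The cryptochromes are the partners of the PER proteins, and CRY2 came closest to the threshold of all members. CRY2 (ENSSSCG00000013270, chromosome 2 from 16585966 to 16620405) was at 32.0, 30.3 and 38.3 FPKM in sham replicates 1 to 3 and at 28.6, 23.5 and 28.5 FPKM in DAC replicates 4 to 6. Every DAC minipig was below every sham minipig, which was the case, or the reverse, in 14.9% of the genes tested. The group means were 33.5 ± 4.19 FPKM (SD, n = 3) and 26.9 ± 2.92 FPKM (SD, n = 3), a fold change of -0.31 (standard error 0.13, 95% interval -0.62 to 0.0071, adjusted P = 0.592 from limma). The exact two-sided permutation P was 0.1, the smallest that 3 minipigs against 3 allow, against an unadjusted 0.0541 from limma. Without sham replicate 2 the fold change was -0.37 and was called, and on leaving out each other minipig it was between -0.35 and -0.21.

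CRY1 (ENSSSCG00000000164, chromosome 5 from 13275544 to 13364594) was much less abundant than CRY2, which exceeded it by at least 9.27 times within each animal. It was at 3.34, 2.13 and 2.56 FPKM in sham replicates 1 to 3 and at 1.94, 2.54 and 2.67 FPKM in DAC replicates 4 to 6. The values of the groups interleaved. CRY1 had a fold change of -0.11 (standard error 0.16, P = 0.498 from limma and 0.5 from the exact permutation test), and 0.013 without sham replicate 1.

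The REV-ERB receptors close the second loop by repressing ARNTL, and both were lowest in sham replicate 1. NR1D1 (ENSSSCG00000036933, chromosome 12 from 22263657 to 22271643) was at 6.45, 9.36 and 14.3 FPKM in sham replicates 1 to 3 and at 14.3, 10.9 and 7.78 FPKM in DAC replicates 4 to 6. The groups covered nearly the same range. The fold change of NR1D1 was 0.15 (standard error 0.30, P = 0.635 from limma and 0.7 from the exact permutation test), and it turned negative when sham replicate 1 (-0.10) or DAC replicate 4 (-0.048) was left out. The annotated position of NR1D1 shares 1582 bases with THRA, the thyroid hormone receptor gene on the opposite strand, which was at 21.9 to 30.3 FPKM, and how reads of the shared stretch were assigned is not given in the sources used here.

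NR1D2 (ENSSSCG00000027017, chromosome 13 from 10756926 to 10791210) was at 11.2, 19.1 and 22.3 FPKM in sham replicates 1 to 3. In DAC replicates 4 to 6 it was at 23.6, 19.6 and 19.2 FPKM. Sham replicate 1 stood apart from the other 5 minipigs, which lay between 19.1 and 23.6 FPKM. The fold change of NR1D2 was 0.28 (standard error 0.24, P = 0.276 from limma and 0.4 from the exact permutation test), and it was 0.0069 without sham replicate 1.

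DBP, a PAR bZIP transcription factor that carries the E-box rhythm to clock outputs through D-box motifs, had the largest difference of the members. DBP (ENSSSCG00000003148, chromosome 6 from 53986959 to 53993020) was at 1.89, 2.35 and 3.69 FPKM in sham replicates 1 to 3 and at 6.73, 2.80 and 4.56 FPKM in DAC replicates 4 to 6. DAC replicates 4 and 6 were above the whole sham group, and DAC replicate 5 fell inside it. The means were 2.64 ± 0.931 FPKM (SD, n = 3) and 4.70 ± 1.97 FPKM (SD, n = 3), a fold change of 0.62 (standard error 0.29, 95% interval -0.056 to 1.29, adjusted P = 0.596 from limma). The unadjusted P was 0.0671 from limma and 0.2 from the exact permutation test. DBP was called when DAC replicate 5 (0.88) or sham replicate 3 (0.81) was left out, and its fold change was 0.37 on leaving out DAC replicate 4 and 0.46 on leaving out sham replicate 1. DAC replicates 4 and 6 were also the minipigs with the most MYL4, and the part of the atrial markers in the DBP values was not tested. A gene without a symbol on the opposite strand overlaps 161 bases of DBP and was at up to 1.58 FPKM.

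In all, 0 of the 9 members were called by limma at an unadjusted P under 0.05, against 8.51% of all genes tested, and the smallest adjusted P of a member was 0.592. DAC minipigs had the higher mean in 5 members and the lower mean in 4, and their median fold change was 0.15, against -0.016 over all genes tested. With 1 minipig left out in turn, between 0 and 2 members were called higher, DBP and PER2 without DAC replicate 5 and DBP without sham replicate 3. Over all 11029 genes, 470 and 244 were called higher without these minipigs, against 358 with all 6. Under the same alternatives 1 member at most was called lower, CRY2 without sham replicate 2 or PER1 without DAC replicate 4. Over all genes, 642 and 515 were called lower without these minipigs, against 581 with none left out. The 95% interval of the difference was widest for ARNTL (-0.98 to 0.62) and narrowest for CRY2 (-0.62 to 0.0071).

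**Figure D2:**
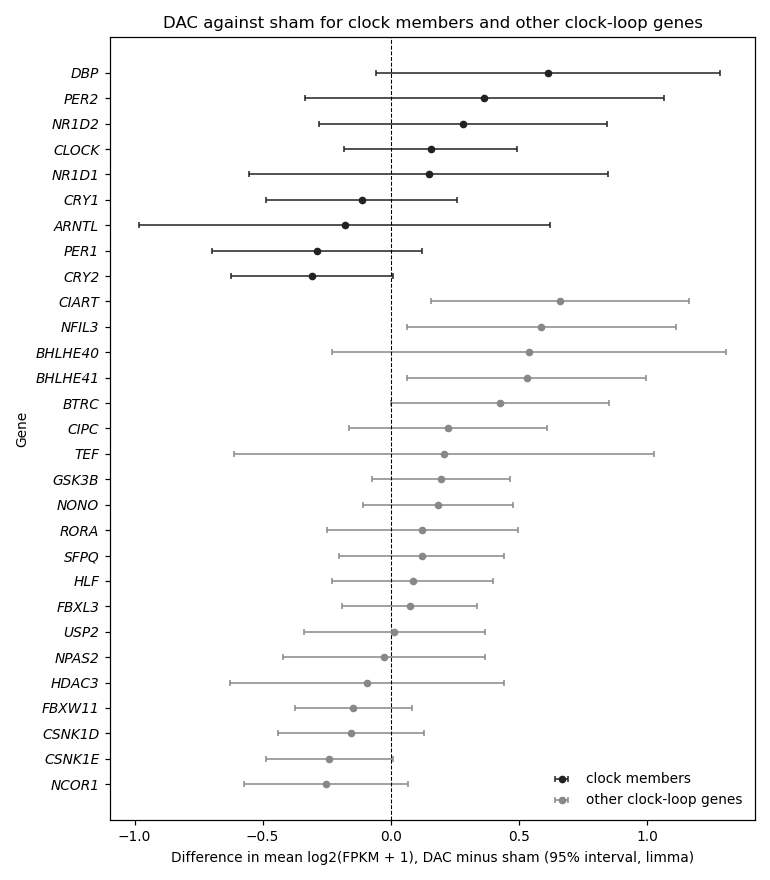
Difference in mean log2(FPKM + 1), DAC minus sham (x axis), with the 95% interval from limma for the 9 clock members (dark, top) and 20 other clock-loop genes (grey). The interval of each member includes 0, and those of CIART, NFIL3, BHLHE41 and BTRC do not.

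The levels of the members relative to each other within each animal were also described, without a test. After subtracting the mean of the 6 minipigs from each gene on the log2(FPKM + 1) scale, sham replicate 1 had ARNTL at 0.66 and CLOCK at 0.14, and PER2 at -0.60, NR1D1 at -0.58, NR1D2 at -0.69 and DBP at -0.61. DAC replicate 4 had the reverse pattern, with ARNTL at -0.43 and PER2 at 0.62, NR1D1 at 0.46, NR1D2 at 0.32 and DBP at 0.81. PER1, also an E-box target, was above its mean in both (0.12 and 0.18). These minipigs thus stood at opposite ends in PER2, NR1D1, NR1D2 and DBP, but not in PER1. ARNTL was highest in sham replicate 1 and lowest in sham replicate 3, with DAC replicate 4 next to lowest.

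Sham replicate 3 was nearer to DAC replicate 4 than to the other sham minipigs in ARNTL (-0.49), NR1D1 (0.46) and NR1D2 (0.24). In PER2 (0.22) and DBP (0.085) it was nearer to sham replicate 2 (-0.16 and -0.40) than to DAC replicate 4 (0.62 and 0.81). In CLOCK, PER1, CRY1 and CRY2 it was also nearer to a sham minipig. DAC replicate 5 had high ARNTL (0.47) and CLOCK (0.25) with low PER2 (-0.37) and DBP (-0.22), as in sham replicate 1, but its NR1D1 (0.099) and NR1D2 (0.062) were not low. In DAC replicate 6, PER2 (0.30) and DBP (0.33) were above their means while NR1D1 (-0.34) was below it. Sham replicate 2 lay near the middle, with ARNTL at 0.10 and PER2 at -0.16. The ordering of the animals by these genes ran across the surgical groups.

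**Figure D3:**
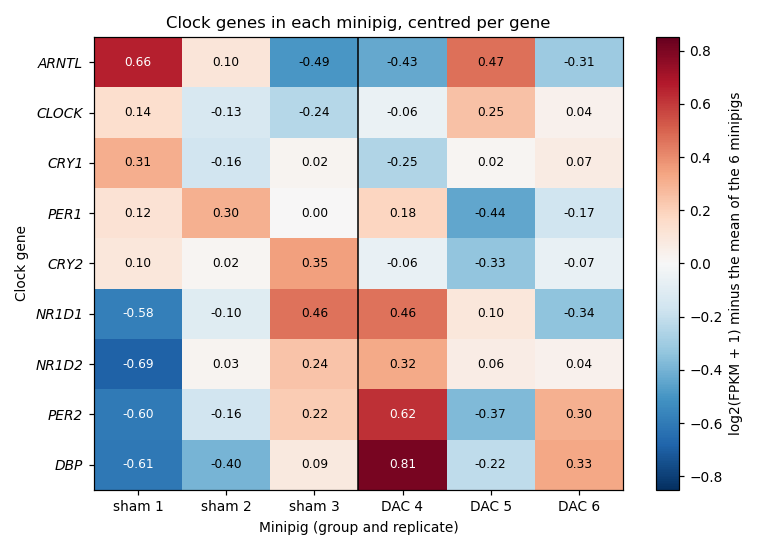
Level of each clock gene (rows) in each minipig (columns, groups divided by the line), as log2(FPKM + 1) minus the mean of the gene over the 6 minipigs, with red above and blue below that mean. Sham replicate 1 and DAC replicate 4 show opposite patterns, with ARNTL at 0.66 and -0.43 and DBP at -0.61 and 0.81.

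The ratio of targets to activator within an animal spread widely inside each group. PER2 over ARNTL in FPKM was 0.540, 1.39 and 3.78 in sham replicates 1 to 3 and 4.89, 0.805 and 3.22 in DAC replicates 4 to 6. For DBP over ARNTL the ratio was 0.497, 1.04 and 3.17 in sham replicates 1 to 3 and 5.36, 0.873 and 3.12 in DAC replicates 4 to 6. In both ratios the sham and the DAC values interleaved.

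As a summary over the arms, the mean log2(FPKM + 1) of PER1, PER2, NR1D1, NR1D2 and DBP minus that of ARNTL and CLOCK was 0.63, 1.46 and 2.08 in sham replicates 1 to 3. It was 2.23, 0.97 and 1.67 in DAC replicates 4 to 6. The groups had means of 1.39 ± 0.724 (SD, n = 3) and 1.62 ± 0.630 (SD, n = 3), so the difference of 0.24 was smaller than the spread between minipigs of a group. The difference turned negative on leaving out sham replicate 1 (-0.14) or DAC replicate 4 (-0.066).

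Across the 6 minipigs, ARNTL was compared with each of the other 8 members on the log2(FPKM + 1) scale. ARNTL and PER2 had a Pearson's r of -0.945 (exact permutation P = 0.00833, adjusted P = 0.0667 over the 8 relations) and a Spearman's rho of -0.829 (exact permutation P = 0.0583, adjusted P = 0.206). Without sham replicate 1 and DAC replicate 5, the minipigs farthest from the median of ARNTL, r was -0.807, and after subtracting the group means it was -0.972. An r under -0.9 with ARNTL was found in 0.671% of the other genes tested.

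NR1D2 had an r of -0.793 with ARNTL (exact permutation P = 0.0181, adjusted P = 0.0722) and a rho of -0.771 (exact permutation P = 0.103, adjusted P = 0.206). DBP had an r of -0.82 (exact permutation P = 0.05, adjusted P = 0.133) and a rho of -0.771 (exact permutation P = 0.103, adjusted P = 0.206). Without the same 2 minipigs, r was -0.756 for NR1D2 and -0.743 for DBP, and after subtracting the group means it was -0.798 and -0.925. For NR1D1 the r was -0.647 (exact permutation P = 0.178, adjusted P = 0.284) and the rho -0.714 (exact permutation P = 0.136, adjusted P = 0.218), with an r of -0.605 without the 2 minipigs and -0.633 after subtracting the group means. PER2, NR1D2, DBP and NR1D1 thus had a negative coefficient, and no adjusted P was under 0.05. Of the remaining targets, given below, CRY2 and PER1 had weaker negative coefficients and CRY1 a positive one. An r under -0.8 with ARNTL, as in PER2 and DBP, was found in 2.71% of the other genes tested.

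CLOCK was positively related to ARNTL (r = 0.749, exact permutation P = 0.0931, adjusted P = 0.186, and rho = 0.771, exact permutation P = 0.103, adjusted P = 0.206), but r was 0.0796 without sham replicate 1 and DAC replicate 5, so across the groups the relation rested on these minipigs. After subtracting the group means, the r of CLOCK was 0.973 over all 6. CRY1 had an r of 0.571 (exact permutation P = 0.226, adjusted P = 0.302) and a rho of 0.371 (exact permutation P = 0.497, adjusted P = 0.663), and its r was -0.252 without them and 0.546 after subtracting the group means. CRY2 had an r of -0.396 (exact permutation P = 0.475, adjusted P = 0.543) and a rho of -0.257 (exact permutation P = 0.658, adjusted P = 0.752), with r = -0.349 without them and -0.853 after subtracting the group means. PER1, unlike PER2, had an r near 0 (-0.181, exact permutation P = 0.733, adjusted P = 0.733, and rho = -0.0857, exact permutation P = 0.919, adjusted P = 0.919), and r was 0.557 without them and -0.374 after subtracting the group means.

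**Figure D4:**
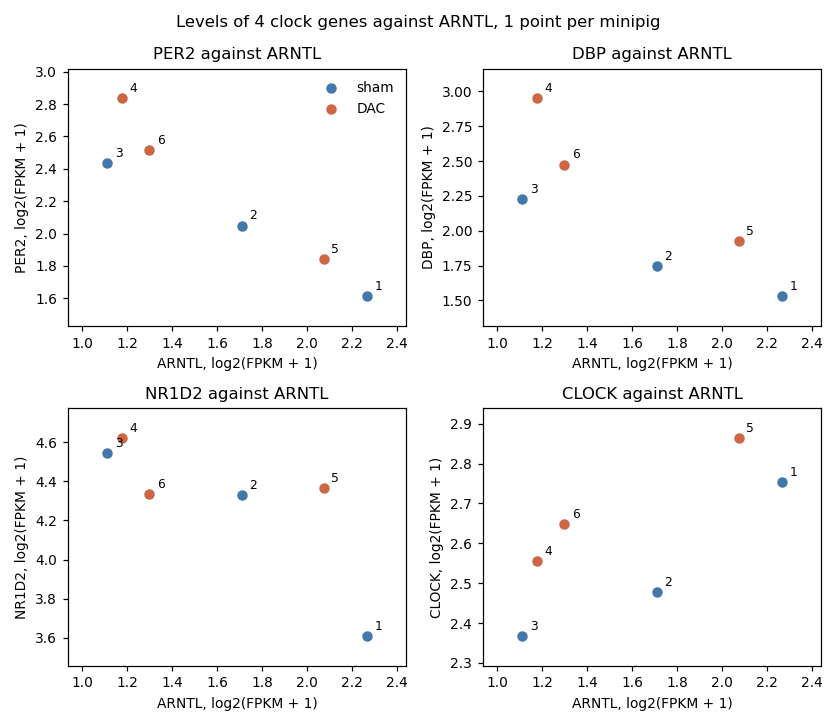
Log2(FPKM + 1) of PER2, DBP, NR1D2 and CLOCK (y axes) against ARNTL (x axes), with 1 point per minipig, numbered by replicate and coloured by group. PER2, DBP and NR1D2 were lowest in sham replicate 1, where ARNTL was highest (r = -0.945, -0.82 and -0.793), and the sham and DAC points share the same range of ARNTL.

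A gene without a symbol (ENSSSCG00000028572, chromosome 6 from 68488263 to 68534004) lies within the position of PER3 in RefSeq's annotation of the pig genome Sscrofa11.1 (68487634 to 68548718), on the build named by the submitters. It was singled out after its values were seen. This gene was at 1.38, 2.80 and 4.30 FPKM in sham replicates 1 to 3 and at 4.93, 2.55 and 4.44 FPKM in DAC replicates 4 to 6. From highest to lowest, the minipigs stood in the same order as for PER2. Its groups differed by 0.42 ± 0.32 (SE) on the log2 scale, with an adjusted P of 0.723 from limma. A further unnamed gene at this position was between 0.227 and 0.867 FPKM, under the filter.

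The spread between minipigs of a group separated the members. On the log2(FPKM + 1) scale the within-group SD was 0.534 for ARNTL, 0.465 for NR1D1, 0.461 for PER2, 0.441 for DBP and 0.362 for NR1D2. These SDs were above those of 95.9%, 93.8%, 93.6%, 92.9% and 87.9% of all genes tested. CRY2 (0.164), CLOCK (0.180), CRY1 (0.207) and PER1 (0.245) were nearer to the median of all genes, 0.176. The median SD of the 9 members was 0.362. The spread of a gene also depends on its level, and no comparison at matched level was made.

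**Figure D5:**
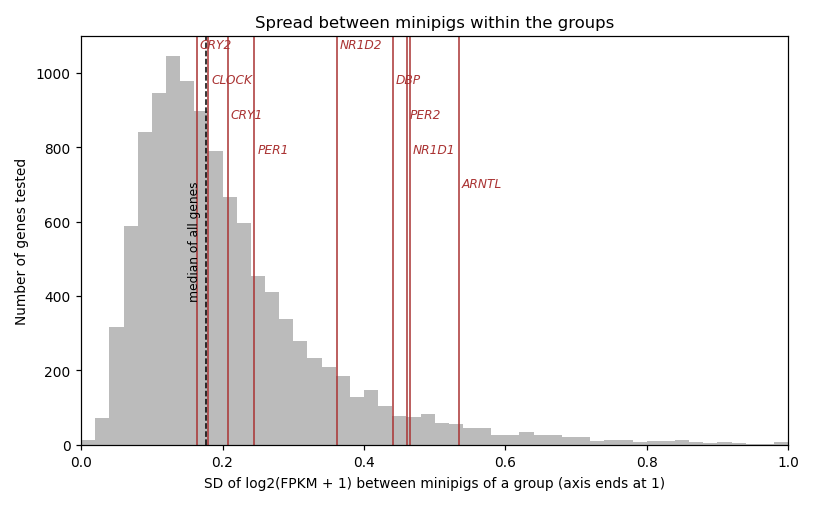
Number of genes tested (y axis) by the SD of log2(FPKM + 1) between minipigs of a group (x axis, which leaves out 63 genes above 1), with the 9 clock genes as red lines and the median of all genes dashed. ARNTL, PER2, NR1D1, DBP and NR1D2 lie in the right tail between 0.362 and 0.534, and CRY2 and CLOCK lie near the median of 0.176.

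The other genes of the clock loops were examined through a list of 24, of which 21 were in the table and 20 were tested. Of these 20, 4 were called higher and 0 lower by limma in the DAC group, against 3.25% and 5.27% of all genes, and their median fold change was 0.12 against -0.016 over all genes tested. BHLHE41, counted among the 4, passed the filter on low values only through the DAC group, as given below. The calls were not stable, since the number called higher was 0 when the variance of each gene was estimated on its own and, on leaving out a minipig, 1 without sham replicate 1 or DAC replicate 4, 2 without sham replicate 2 or 3 or DAC replicate 6, and 4 without DAC replicate 5. On leaving out sham replicate 2 or DAC replicate 6, 1 gene was called lower, and 2 were with each variance on its own. The summed fibroblast markers were also higher in the DAC group, though not each of these markers, as given above. Their part in these calls was not tested.

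CIART (CHRONO), a repressor of the ARNTL and CLOCK heterodimer, was at 1.87, 2.67 and 2.07 FPKM in sham replicates 1 to 3 and at 3.85, 2.88 and 5.79 FPKM in DAC replicates 4 to 6. It rose in the DAC group without overlap, by 0.66 ± 0.21 (SE) on the log2 scale with an adjusted P of 0.522 from limma, and lost its call without sham replicate 1 (0.59). BHLHE41 (DEC2), which competes for E-boxes, was at 0.658, 0.743 and 1.48 FPKM in sham replicates 1 to 3 and at 2.29, 1.37 and 1.77 FPKM in DAC replicates 4 to 6. BHLHE41 rose by 0.53 on the log2 scale (adjusted P = 0.562 from limma), with overlapping groups, and lost its call without sham replicate 1 or 2 or DAC replicate 4 or 6 (0.41 to 0.54). It was under 1 FPKM in sham replicates 1 and 2, so it passed the filter on low values only through the DAC group.

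NFIL3 (E4BP4), the D-box repressor that opposes DBP, was at 24.9, 14.5 and 13.3 FPKM in sham replicates 1 to 3 and at 27.7, 25.4 and 24.8 FPKM in DAC replicates 4 to 6. The DAC minipigs were close together, and sham replicate 1 was level with them. NFIL3 rose by 0.59 on the log2 scale (adjusted P = 0.564 from limma), and it kept its call without sham replicate 1 (0.86) but lost it without any other minipig (0.43 to 0.62). BTRC, a ubiquitin ligase subunit that targets PER proteins, rose by 0.43 (unadjusted P = 0.0497 and adjusted P = 0.586 from limma). Its groups overlapped, at 3.63, 3.16 and 3.26 FPKM in sham replicates 1 to 3 and 6.20, 5.18 and 3.48 FPKM in DAC replicates 4 to 6. BTRC kept its call without DAC replicate 6 (0.62) but lost it without any other minipig (0.28 to 0.47). It also lost the call with quantile normalization, sample weights or its own variance.

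RORA, which activates ARNTL through the elements that REV-ERB receptors bind, and NPAS2, which can stand in for CLOCK, were added after their values were seen. RORA had a fold change of 0.12 (adjusted P = 0.846 from limma). NPAS2 was at 1.29 to 2.23 FPKM with a fold change of -0.027 (adjusted P = 0.972 from limma).

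The PAR bZIP relatives of DBP, singled out after their values were seen, ordered the minipigs much as DBP and PER2 did. TEF was at 11.6, 18.4 and 19.6 FPKM in sham replicates 1 to 3 and at 25.5, 10.5 and 24.3 FPKM in DAC replicates 4 to 6. HLF was at 11, 11.1 and 12.3 FPKM in sham replicates 1 to 3 and at 14.2, 10.4 and 12.3 FPKM in DAC replicates 4 to 6. Neither passed the test (fold changes of 0.21 and 0.086). DAC replicates 4 and 6 and sham replicate 3, the 3 highest minipigs for PER2, were also the 3 highest for DBP, TEF, HLF, BHLHE41 and RORA. This held for 2 of the 9 members, PER2 included, 4 of the 20 clock-loop genes and 4.65% of all genes tested. It also held for KCNIP2, 1 of the 14 clock-controlled heart genes taken up below, but not for PER1, NR1D1 or NR1D2. The same minipigs were the 3 lowest for ARNTL, as they were for 3.55% of all genes tested. These minipigs were picked by the PER2 values.

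Genes known to be under clock control in rodent hearts were taken from a list of 17, of which 14 were tested. None was called higher and 3 were called lower by limma in the DAC group, against 3.25% and 5.27% of all genes, and the median fold change was -0.20. Without sham replicate 3 or DAC replicate 4, 1 gene was called higher. The number called lower was 2 without sham replicate 1 or 2 and 4 without DAC replicate 6. CDKN1A, the cell cycle inhibitor p21, was at 21.2, 12.6 and 15.5 FPKM in sham replicates 1 to 3 and at 10.9, 6.37 and 7.41 FPKM in DAC replicates 4 to 6. CDKN1A fell by 0.92 on the log2 scale (standard error 0.24, adjusted P = 0.482 from limma).

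PNPLA2, the adipose triglyceride lipase ATGL, was at 90.9, 77.0 and 96.8 FPKM in sham replicates 1 to 3 and at 72.7, 62.4 and 52.0 FPKM in DAC replicates 4 to 6, and it fell by 0.50 (adjusted P = 0.511 from limma). KCNH2, which encodes the hERG potassium channel, was at 35.6, 30.3 and 25.2 FPKM in sham replicates 1 to 3 and at 23.6, 18.6 and 22.9 FPKM in DAC replicates 4 to 6, and it fell by 0.46 (adjusted P = 0.546 from limma). In these 3 genes, which were picked by their calls, the groups did not overlap, as in 14.9% of all genes tested. PNPLA2 lost its call without sham replicate 3 (-0.43), and KCNH2 without sham replicate 1 (-0.34), sham replicate 2 (-0.46) or DAC replicate 5 (-0.36).

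PER1 is also induced by glucocorticoids and by immediate early signals, and both kinds of gene were examined beside it. Of 10 glucocorticoid-induced genes tested, 4 were called lower and 0 higher by limma, against 5.27% and 3.25% of all genes, with a median fold change of -0.40. Leaving out sham replicate 3 gave 2 genes called lower, and leaving out DAC replicate 5 gave 6. DDIT4, an inhibitor of mTORC1, and FKBP5, a cochaperone of the glucocorticoid receptor, were the 2 with the smallest P. FKBP5 was at 26.9, 31.0 and 31.5 FPKM in sham replicates 1 to 3 and at 14.1, 18.4 and 9.85 FPKM in DAC replicates 4 to 6, without overlap (fold change of -1.07, adjusted P = 0.379 from limma), and DDIT4 had a fold change of -0.79 (adjusted P = 0.222 from limma). PER1 had the lower mean in the DAC group too, as given above. Within the DAC group, PER1 was highest in replicate 4, as was DDIT4 (53.0 FPKM), and lowest in replicate 5, where FKBP5 was highest. A part of glucocorticoids in the PER1 values was not tested.

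Of 10 immediate early genes tested, 1 was called higher and 0 lower by limma, against 3.25% and 5.27% of all genes, with a median fold change of 0.036. Without sham replicate 1 or DAC replicate 5, 2 were called higher, and without DAC replicate 4, 2 were called lower. It was NR4A3, an orphan nuclear receptor, at 28.2, 17.0 and 12.6 FPKM in sham replicates 1 to 3 and at 37.4, 53.4 and 70.9 FPKM in DAC replicates 4 to 6 (fold change of 1.47, adjusted P = 0.428 from limma). MYC had a fold change of -0.30 (adjusted P = 0.596 from limma). NR4A3 was highest in DAC replicate 6 and PER1 in sham replicate 2.

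Among the 6188 other genes with a mean of at least 5 FPKM, the 5 with the highest Pearson's r to ARNTL over the 6 minipigs were GTF3C2 (0.986), GATA6 (0.983), SBF2 (0.974), FBXW4 (0.974) and CIAO3 (0.969). GATA6, a cardiac transcription factor, was at 79.2, 54.8 and 45.4 FPKM in sham replicates 1 to 3 and at 47.3, 73.4 and 47.8 FPKM in DAC replicates 4 to 6. The 5 most like DBP were CAPZA2 (0.991), SPATA24 (0.988), 2 genes without a symbol (0.982 and 0.979) and LRRC66 (0.978). CAPZA2, a subunit of actin capping protein, was at 5.11, 5.75 and 6.38 FPKM in sham replicates 1 to 3 and at 8.06, 6 and 7.20 FPKM in DAC replicates 4 to 6. With 6 points per gene and 6188 genes compared, coefficients of this size are a description of these libraries alone.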

How the data were processed

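The authors deposited 1 table of FPKM with a column for each of the 6 minipigs, as the header of the table names it. The submitters' processing notes name HISAT2 and the genome build susScr11, while the quantification program and its handling of shared reads are not given in the sources used here. The labels give each animal's group, and the columns carry the labels' sample numbers. Every listed gene had at least 0.5 FPKM in its highest sample. The depth is unknown: low values showed no steps of whole reads (at most 5 of 3753 genes shared a ratio between samples), so precision rests on the spread between minipigs alone.

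Of 2440 genes without a symbol, 519 received one from a table of gene identifiers. Genes that reached 1 FPKM in 3 or more samples were compared on log2(FPKM + 1) with limma 3.58.1 in R 4.3.3, with a variance trend, and P was adjusted over all tested genes by the Benjamini-Hochberg method. The test was also run on simulated data with known changes. Exact permutation tests over the samples, two-sided, used scipy 1.17.1 and all pairings in Python 3.11.15. Described genes are the 9 members found, the called genes of the 2 clock lists, the 2 smallest P of the glucocorticoid and immediate early lists, and the 5 genes most like ARNTL or DBP, and others are said to be chosen after their values were seen or serve as background. The members and lists were chosen with earlier results of these data known. The leukocyte markers summed to 42.9 to 45.5 FPKM in the sham group and 34.7 to 47.5 FPKM in the DAC group, smooth muscle markers to 111 to 145 and 142 to 158 FPKM, and adipocyte markers to 0.111 to 0.616 and 0.461 to 1.34 FPKM. Since PER3 has no symbol in the table, ARNTL was compared with 8 members, and the output arm holds 5 genes. In addition, 1 gene of the clock-loop list is not reported here.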

Additional observations from a re-analysis of the deposited data

How the results depend on the processing

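The alternatives were no filter, at least 5 FPKM, a pseudocount of 0.1, median scaling, quantile normalization, mitochondrially encoded genes left out, each gene's own variance, sample weights, and each minipig left out in turn. Of 122 fold changes of the members under these alternatives, 113 kept their direction and their side of the threshold, 5 passed it and 4 changed sign. The sign changes came from leaving out a minipig, with ranges of -0.47 to 0.11 for ARNTL, -0.22 to 0.013 for CRY1 and -0.10 to 0.41 for NR1D1. For the other named genes, 26 of 151 values lost their call and 1 gained it, with 0 sign changes.

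With 1 minipig left out, the members called were 0 to 2 higher and 0 to 1 lower, and the other clock-loop genes 1 to 4 higher and 0 to 1 lower. The clock-controlled genes called were 0 to 1 higher and 2 to 4 lower, the glucocorticoid-induced genes 2 to 6 lower, and the immediate early genes 1 to 2 higher and 0 to 2 lower. With each gene's own variance, 0 loop genes were called higher and 2 lower. At least 5 FPKM left 1 loop gene called higher, because 16 were tested. Of the clock-controlled genes, 1 was called higher with quantile normalization, and likewise 1 once the mitochondrial genome was dropped. Sample weights gave 7 glucocorticoid-induced genes called lower. The cause of these changes was not tested.

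The difference between output and activator arms was 0.24 to 0.31 under pseudocount, scaling and arm alternatives, except 0.36 without PER1, and -0.14 to 0.58 with a minipig left out. The arm alternatives, and a pseudocount of 0.1 and mitochondrially encoded genes left out for the correlations with ARNTL, were added after seeing the data. The 16 coefficients under the latter kept their sign, with adjusted exact permutation P of at least 0.0667. Correlations were not run with each minipig left out in turn. Tissue time, depth and counting error could not be examined.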
